A study of Mus musculus with 48 samples.

Results

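The Dickkopf family, the Kremen receptors and Notum were followed through the hair cycle of mouse skin. The members were the 8 genes Dkk1, Dkk2, Dkk3, Dkk4, Dkkl1, Kremen1, Kremen2 and Notum, taken by gene name from the 46983 genes of each of 2 expression tables, and all 8 had a row in both. The first table held 43 libraries of skin from 3 domains (chin, ventral and dorsal) at 6 labelled stages of the hair cycle, 18 groups of 2 or 3 libraries. The stages were those of growth (early, mid and late anagen), of regression (catagen) and of rest (refractory telogen, then competent telogen). The second held 7 libraries: 3 of the cartilage/muscle complex of the ear, 2 of ear skin in telogen and 2 of dorsal skin in competent telogen. The ear skin is labelled rostral. These 2 dorsal libraries had equal values in both tables for all 46983 genes, so 48 libraries were distinct.

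All groups were untreated mice of the C57BL/6 strain with no allele or agent named, and the sources used here give no age for the libraries. Every library was whole tissue, in which fewer cells of a type and less RNA per cell cannot be told apart. Nothing in the labels says that replicates came from separate mice, so p-values measure the spread between these samples, which may be technical. Values are FPKM, fragments scaled for transcript length and for the number of mapped fragments. Differences are given on the log2(FPKM + 1) scale, which understates the change of low genes. Each was tested with limma across all genes that reached 0.5 FPKM in at least 2 libraries, and a gene was called at a Benjamini-Hochberg adjusted p under 0.05. From the steps between low FPKM values, the skin libraries held about 6769000 to 27724000 fragments (median 14502000) and those of the ear table about 6779000 to 28697000.

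The stage labels were checked against markers, since the members are described by stage. Hair matrix and cortex markers (7 of the 8 listed genes were found) had a mean log2(FPKM + 1) level of 6.30 in chin, 6.38 in ventral and 6.65 in dorsal skin labelled competent telogen, against 4.70 in ventral skin labelled early anagen and 5.92 in dorsal early anagen. The mean level of 5 melanocyte markers was 5.10 to 5.72 in the 3 groups labelled competent telogen, 2.02 in ventral early anagen and 1.54 to 2.22 in the refractory telogen groups. Growing follicles make pigment and resting ones do not, so in these markers the competent telogen groups stood with the anagen groups, and ventral early anagen stood with refractory telogen. Dorsal catagen, the group lowest in several members, had the highest values of all 18 groups for the pigment genes Mlana (466.2 FPKM) and Dct (347.8 FPKM) and for the proliferation gene Mki67 (22.9 FPKM), chosen after their values were seen, although follicles in catagen regress. Tyr, another pigment gene chosen likewise, stood at 39.3 FPKM in dorsal catagen, below the 42.7 FPKM of dorsal mid anagen. The hair cortex gene Krt35 and the inner root sheath gene Krt71, chosen likewise, were low in dorsal catagen, at 373.6 and 2791.4 FPKM. Dorsal late anagen held 932.1 and 10329.3 FPKM of them. Chin catagen held the highest Krt35 of the 18 groups (1170.4 FPKM), and ventral catagen the highest Mlana in ventral skin (190.6 FPKM). The hair matrix and melanocyte lists go against the 3 competent telogen labels and the ventral early anagen label, and the markers are mixed for catagen. Krt71 was less clear. Chin (4381.0 FPKM) and ventral (4025.2 FPKM) competent telogen lay below ventral (6590.2 FPKM) and dorsal (5878.5 FPKM) refractory telogen. Dorsal competent telogen held 8266.2 FPKM, chin refractory telogen 2691.1 FPKM and ventral early anagen 1778.8 FPKM. The groups are called by their labels throughout. 1 of the 2 ventral catagen libraries carries an ear location in 1 label field, although its title and source name call it ventral.

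**Figure D1:**
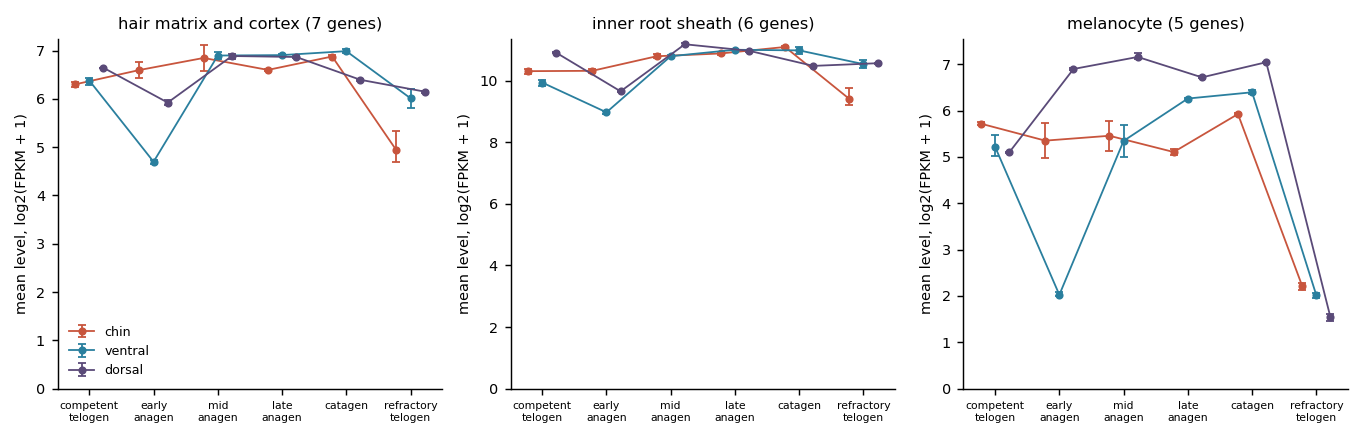
Mean level of marker lists, log2(FPKM + 1), on the vertical axis by labelled stage on the horizontal axis. Points are group means joined by a line for each domain, and bars run from the lowest to the highest library. Melanocyte markers sit between 5.10 and 5.72 as group means in skin labelled competent telogen and at 2.02 in ventral early anagen.

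WNT proteins drive hair follicle growth by binding Frizzled receptors together with the co-receptors LRP5 and LRP6. Dkk1, Dkk2 and Dkk4 are secreted proteins that bind these co-receptors and block the signal, and Kremen1 and Kremen2 are membrane proteins that bind the Dickkopf proteins and strengthen the block. Dkk3 and Dkkl1 are divergent relatives that are not classical ligands of the co-receptors. Notum is a secreted enzyme that removes the lipid from WNT proteins, which then no longer bind their receptors. Several of these inhibitors, Dkk1 and Notum among them, are themselves known to be switched on by WNT signalling.

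The annotated genes (GENCODE release M21 on GRCm38) lie on 6 chromosomes: Dkk1 at chr19:30545863-30549665, Dkk2 at chr3:132085292-132180304, Dkk4 at chr8:22624043-22627547, Dkkl1 at chr7:45207519-45212147, Dkk3 at chr7:112116017-112159057, Kremen1 at chr11:5191552-5261558, Notum at chr11:120653788-120661175 and Kremen2 at chr17:23741197-23745833. Dkk2 and Dkk4 are on the plus strand and the other 6 on the minus strand. Kremen2 overlaps the antisense gene 9530082P21Rik, and Notum the antisense genes Notumos and Myadml2os. The libraries are not stated to keep strand, so reads of these genes and their antisense partners cannot be told apart. 9530082P21Rik stood between 4.42 and 11.29 FPKM in skin, and Notumos never exceeded 0.81 FPKM there.

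Promoter sequence is shown because the core letters bound by the TCF and LEF factors of the WNT pathway can be looked for in it. The RefSeq table (GRCm38.p6, 32851 promoters) held 4 of the 8 members: Dkk1, Dkk2, Dkkl1 and Kremen2. In the 250 bases before each start, 4 sets of letters were sought on both strands. The TCF/LEF core was sought in a form CTTTGA, found in 13.8% of all promoters, and in a form CTTTGT, found in 16.5%. The TATA box letters TATAAA were in 12.4% of them and the Sp1 letters GGGCGG in 32.7%. Dkk1 held 2 CTTTGA cores and 1 CTTTGT core, Dkk2 held 1 CTTTGT core, and neither form was in the windows of Kremen2 and Dkkl1. A match is a description of letters only. The 3 stretches around the Dkk1 cores follow in capitals, each read 5′ to 3′ on the minus strand, at chr19:30549655-30549680, chr19:30549598-30549623 and chr19:30549579-30549604; their first capital letters lie 174, 117 and 98 bases before the RefSeq start. The GENCODE gene starts further upstream, at 30549665, so the first core reaches that start and the other two lie within the annotated gene. Dkk2 is shown from chr3:132085042-132085291 on the plus strand, with its CTTTGT core, its TATA box letters and its 2 Sp1 matches in capitals, and Kremen2 from chr17:23745834-23746079 on the minus strand, with its 2 Sp1 matches in capitals; it is shown beside the others as the Kremen window without a TCF/LEF form, and it overlaps an exon of 9530082P21Rik. None of these matches overlap.
Dkk1 core 1: ggggagagtgTCAAAGtcctccctgc
Dkk1 core 2: cctcccaaagCTTTGAaatcccatcc
Dkk1 core 3: cccatcccggCTTTGTtgtcttccct
Dkk2: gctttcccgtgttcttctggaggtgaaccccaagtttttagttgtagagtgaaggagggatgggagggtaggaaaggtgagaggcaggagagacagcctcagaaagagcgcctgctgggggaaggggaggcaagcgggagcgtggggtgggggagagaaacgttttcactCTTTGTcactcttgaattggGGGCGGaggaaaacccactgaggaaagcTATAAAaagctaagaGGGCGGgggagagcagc
Kremen2: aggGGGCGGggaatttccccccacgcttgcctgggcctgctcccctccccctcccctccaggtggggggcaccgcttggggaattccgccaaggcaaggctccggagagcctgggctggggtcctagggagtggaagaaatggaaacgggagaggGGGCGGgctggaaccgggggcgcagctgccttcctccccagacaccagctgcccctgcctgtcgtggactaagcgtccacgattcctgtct

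In FPKM, which is per length, Dkkl1 was the most abundant member in skin, at 21.88 to 126.28 FPKM (median 54.85). Dkk3 ranged from 6.28 to 20.77 FPKM (median 10.65), Kremen1 from 5.25 to 16.29 FPKM (median 10.71) and Notum from 2.33 to 14.17 FPKM (median 6.03). Dkk2 lay at 0.88 to 8.71 FPKM (median 3.29) and Kremen2 at 1.16 to 10.52 FPKM (median 3.21). These 6 members were therefore read in every skin library. Dkk1 reached at most 0.88 FPKM and was listed at 0 in 21 of 43 libraries, and Dkk4 reached at most 0.73 FPKM and was listed at 0 in 13. All 8 members passed the filter on low values, but Dkk1 and Dkk4 did so through 3 libraries each, those of the groups where they were high. A test of such genes is not independent of the filter, so Dkk1 and Dkk4 are described without p-values and the counts below are over the other 6 members. The exception is a flagged Dkk1 value in the closing sections, from which nothing is concluded.

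Dkk1, the best studied of the WNT co-receptor blockers, was read in few groups. In skin labelled competent telogen it stood at 0.40, 0.88 and 0.52 FPKM in ventral, 0.28 and 0.34 in chin, and 0 and 0.04 in dorsal libraries. In early anagen the domains were placed otherwise: dorsal libraries held 0.62 and 0.44 FPKM, chin libraries 0.10 and 0.14, and all 3 ventral libraries were listed at 0. From mid anagen to refractory telogen no library passed 0.11 FPKM. The highest groups were ventral competent telogen and dorsal early anagen, whose libraries overlapped. These values rest on few molecules. The estimated fragments were 11, 16 and 18 in ventral competent telogen, 15 and 9 in dorsal early anagen, and 117 over all 43 skin libraries, while 1 fragment was worth 0.016 to 0.0657 FPKM. No fold is given for Dkk1 for that reason.

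Dkk4, also a co-receptor blocker, was spread more thinly still, with about 108 fragments in all. It was highest in dorsal mid anagen, at 0.51, 0.37 and 0.45 FPKM (about 12, 4 and 14 fragments). Ventral competent telogen held 0.73, 0.34 and 0.06 FPKM (about 10, 3 and 1 fragments), so that group's mean rests on 1 library. Libraries of dorsal late anagen (0.27, 0.11 and 0.45 FPKM) and dorsal catagen (0.09 and 0.52 FPKM) reached the same range.

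**Figure D2:**
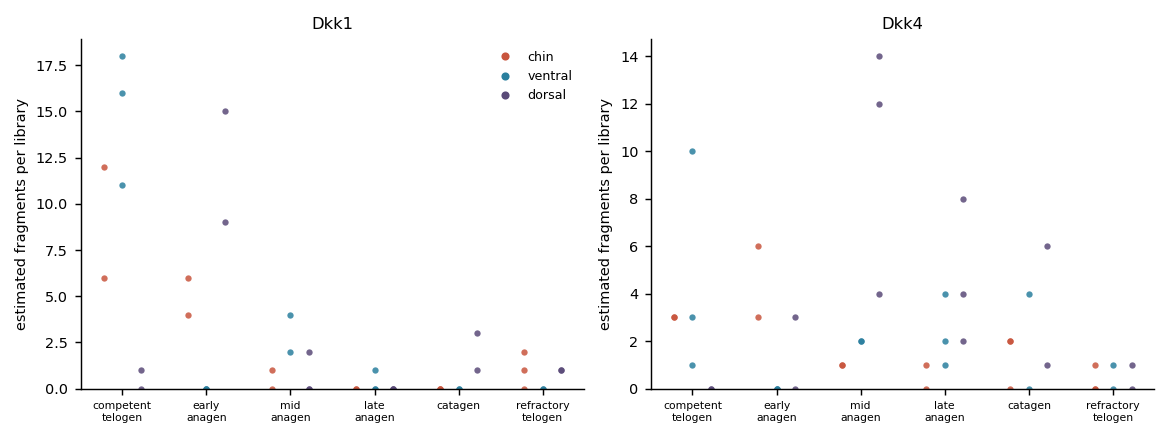
Estimated fragments per library of Dkk1 (left) and Dkk4 (right), on the vertical axis, by labelled stage on the horizontal axis, with 1 point per library coloured by domain. Dkk1 reaches 18 fragments in ventral competent telogen and 15 in dorsal early anagen and is at or near 0 from late anagen on.

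Dkk2, the third co-receptor blocker, had its 3 highest group means in refractory telogen. The libraries held 7.66, 6.56 and 8.71 FPKM in chin, 7.03 and 7.91 in ventral and 6.78 and 6.17 in dorsal refractory telogen. In dorsal skin the level was lowest in mid anagen, at 0.92, 0.88 and 1.21 FPKM, with 1.48, 1.89 and 1.83 in late anagen and 2.04 and 1.39 in catagen. Chin mid anagen was low as well, at 1.82 and 1.57 FPKM. Ventral mid anagen was not: its libraries held 7.44 and 4.71 FPKM, and this group could not be told from chin refractory telogen, the highest. The group means spanned 1.003 to 7.643 FPKM, a ratio of 7.62, the widest among the 6 members read in every library. Over the 18 group means Dkk2 ran opposite to the melanocyte marker list (Pearson r = -0.80, a description across groups that share libraries and depth).

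Dkk3, a secreted relative that does not block the co-receptors in the classical way, was highest in early anagen of ventral skin, at 18.22, 20.77 and 20.19 FPKM, and of dorsal skin, at 20.12 and 18.76 FPKM. Skin labelled competent telogen was nearly as high in the ventral domain, at 18.06, 16.47 and 14.48 FPKM, and in the chin, at 16.87 and 14.66 FPKM. The dorsal competent telogen libraries were far lower, at 6.81 and 6.64 FPKM, close to dorsal catagen at 6.28 and 7.13 FPKM, the lowest group. Chin refractory telogen, at 16.63, 12.71 and 16.21 FPKM, lay above dorsal refractory telogen at 7.21 and 7.12 FPKM with no overlap. The 8 sebaceous gland markers followed the same groups (r = 0.90 over the 18 group means). Their mean level was 5.44 to 5.53 in ventral early anagen and competent telogen and 5.34 in dorsal early anagen, against 3.66 in dorsal competent telogen and 3.66 in dorsal catagen; their part in the Dkk3 levels was not tested.

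Dkkl1, a Dickkopf-like secreted protein known best from the testis, was high in all refractory telogen groups and low in all catagen groups. The refractory telogen libraries held 100.53, 109.74 and 98.47 FPKM in chin, 82.65 and 116.35 in ventral and 86.41 and 75.78 in dorsal skin. The catagen libraries held 31.02, 42.23 and 40.11, then 21.88 and 22.81, then 23.70 and 21.95 FPKM in the same order of domains. No catagen library came near a refractory telogen one. The highest groups were chin competent telogen, at 126.28 and 107.33 FPKM, and ventral early anagen, at 109.77, 121.1 and 118.97 FPKM. Dorsal competent telogen, at 31.62 and 33.43 FPKM, stood with the catagen groups instead. Of the marker lists, Dkkl1 moved most closely with the 7 bulge and germ markers over the 18 groups (r = 0.93). Their mean level was 6.00 in ventral early anagen and 5.33 to 5.72 in refractory telogen against 4.43 to 4.58 in catagen. The markers of differentiating epidermis came next (r = 0.87). The part of these lists in the Dkkl1 levels was not tested.

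The Kremen receptors had like profiles, with r = 0.84 between them over the 18 group means. Kremen2 was highest in ventral competent telogen, at 10.52, 9.05 and 8.38 FPKM, and dorsal early anagen at 8.61 and 6.63 FPKM and chin competent telogen at 8.03 and 6.59 FPKM could not be told from it. It was lowest in dorsal catagen, at 1.16 and 1.53 FPKM, and dorsal competent telogen was little higher, at 2.08 and 2.41 FPKM. Kremen1 varied less: its highest and lowest group means, 14.82 FPKM in dorsal early anagen and 6.465 FPKM in dorsal catagen, had a ratio of 2.29, against 6.93 for Kremen2. The libraries behind those Kremen1 means held 15.65 and 14 FPKM and 6.00 and 6.93 FPKM, and dorsal competent telogen was again near the bottom at 7.63 and 7.25 FPKM. In ventral refractory telogen the 2 libraries disagreed, at 10.71 and 5.25 FPKM, and every Kremen1 comparison with that group rests on them.

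Notum, the WNT deacylase, was highest in dorsal early anagen, at 12.85 and 14.17 FPKM, and in ventral competent telogen, at 13.82, 12.34 and 9.80 FPKM, the only group that could not be told from it. It was low in ventral early anagen, at 3.21, 3.13 and 2.87 FPKM, in dorsal competent telogen, at 3.72 and 3.82 FPKM, and in dorsal catagen, at 3.60 and 2.33 FPKM. So the labels that held the highest Notum in one domain held the lowest or nearly the lowest in the other. In chin the libraries kept between 4.0 and 9.83 FPKM at all stages. The antisense Notumos was at 0.67 to 0.81 FPKM in dorsal early anagen, 0.51 to 0.73 in ventral competent telogen and 0.03 to 0.08 in ventral early anagen. Shh, a hair matrix signal chosen after its values were seen, was highest in the same 2 groups, at 10.8 FPKM in dorsal early anagen and 9.93 in ventral competent telogen, and lowest in ventral early anagen at 0.203; dorsal competent telogen held 2.09 FPKM.

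**Figure D3:**
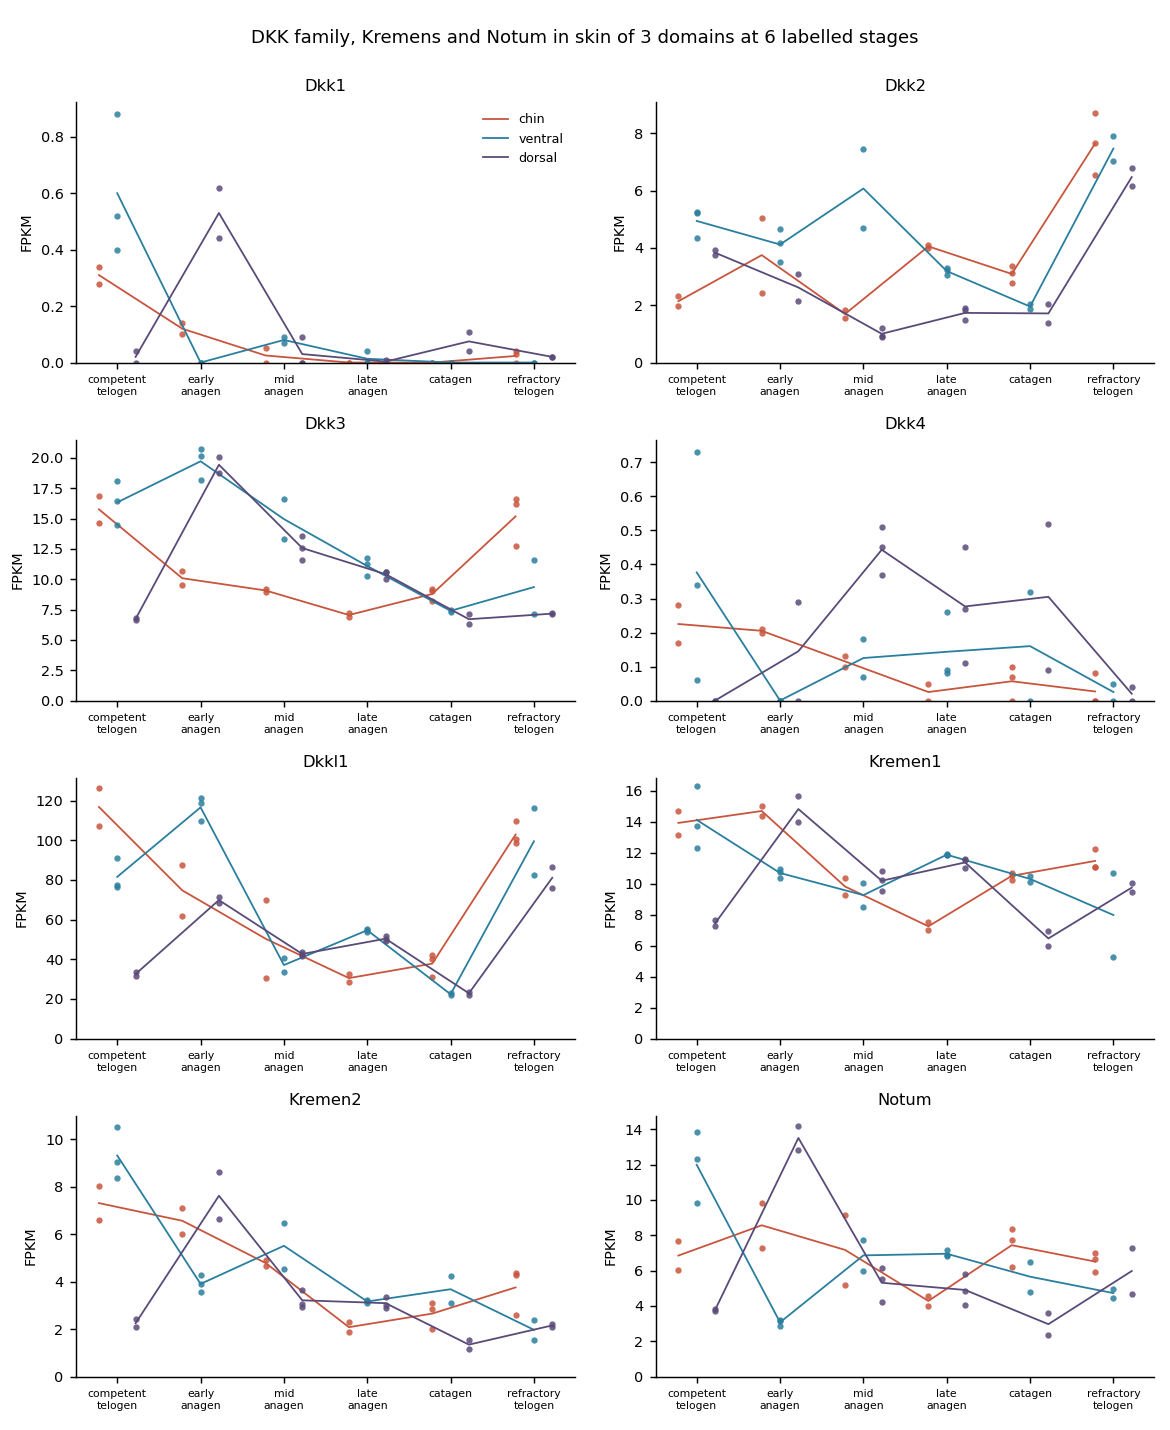
FPKM of the 8 members, Dkk1 and Dkk4 included, on the vertical axis of each panel, by labelled stage on the horizontal axis, with 1 point per library and a line through the group means of each domain. The dorsal libraries of Dkk3, Dkkl1, Kremen1, Kremen2 and Notum are low at competent telogen and higher at early anagen, and Dkk2 is high at refractory telogen in all 3 domains.

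The first question of the design is whether the domains go through the cycle with different levels. The interaction of domain and stage was called for all 6 members read in every library, beside 73.3% of all 21257 genes tested. The adjusted p was 7.5e-10 for Dkk3, 6.4e-09 for Notum, 2.4e-08 for Kremen2, 6.3e-07 for Dkk2, 7.9e-07 for Dkkl1 and 1.2e-06 for Kremen1. Within domains, levels differed among the stages for all 6 in chin (background 66.2%), in ventral skin (70.2%) and in dorsal skin (68.5%). Most genes differed in these tests. Notum in chin had an adjusted p of 0.02, which rose to 0.18 without chin late anagen replicate 2, to 0.072 without replicate 1 of that group and to 0.053 without chin early anagen replicate 2. It was also not called under median of ratios scaling (0.075), under quantile normalization (0.065) or with only the chin libraries in the fit (0.075). Without the competent telogen and ventral early anagen groups, Notum no longer differed among the ventral stages (0.19).

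Most members differed between domains at the first labelled stages. All 6 differed among the domains at competent telogen (background 54.0%) and at early anagen (51.6%). Dkk2 at early anagen, with an adjusted p of 0.045, was lost without any of several libraries, up to 0.42 without dorsal early anagen replicate 2. With the competent telogen and ventral early anagen groups left out, chin and dorsal early anagen alone remained, and there Kremen1 (1.0), Dkkl1 (0.87), Kremen2 (0.54), Dkk2 (0.22) and Notum (0.05) were no longer called, and Dkk3 was (0.00014). At mid anagen Dkk2, Dkk3 and Kremen2 differed (3 of 6, background 38.1%), with adjusted p of 2e-08, 0.0017 and 0.0086. With only the libraries of that stage in the fit, Dkk3 (0.05 after rounding) and Kremen2 (0.07) were not called, and Kremen2 also went to 0.058 without ventral mid anagen replicate 2. 2 members entered that list on leaving out 1 library, Dkkl1 without chin mid anagen replicate 1 (0.00067) and Notum without chin mid anagen replicate 2 (0.041).

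At late anagen 5 of 6 members were called (background 20.8%), Dkk2, Dkk3, Dkkl1, Kremen1 and Notum, the share furthest above its background. The chin held the lowest Dkkl1 there, at 32.37 and 28.59 FPKM against 49.14 to 55.20 FPKM in the other domains, and the lowest Kremen1, at 7.50 and 7.0 FPKM against 11 to 11.93 FPKM. Dkk2 was instead highest in chin late anagen, at 3.99 and 4.12 FPKM against 3.06 to 3.29 in ventral and 1.48 to 1.89 in dorsal libraries. As the chin group has only 2 libraries, leaving out replicate 2 took Dkkl1 to an adjusted p of 0.12, Kremen1 to 0.065 and Notum to 0.16, and leaving out replicate 1 took Dkk3 to 0.062 and Notum to 0.09. Notum, at 0.049, was not called under median of ratios scaling (0.068) or quantile normalization (0.077) and crossed the threshold when many other single libraries were left out. At catagen 5 of 6 differed (42.9%), all but Dkk3, and at refractory telogen 3 of 6 (42.2%), Dkk3, Kremen1 and Kremen2. Kremen2 at refractory telogen was lost under quantile normalization (0.25) and with only the libraries of that stage in the fit (0.12), and Kremen1 under both (0.06 and 0.3). Kremen1 also went from 0.0087 to 0.12 without ventral refractory telogen replicate 2, and Dkk2 at catagen from 0.0099 to 0.06 without dorsal catagen replicate 2 and to 0.051 without chin catagen replicate 3.

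From competent telogen to early anagen, the labelled start of growth, most members rose in dorsal skin, while in ventral skin 3 of 6 fell and 1 rose. In dorsal skin 5 of 6 rose and none fell (background 43.4%; median difference of the members 1.24, of all genes 0.25). Notum rose from 3.77 ± 0.0707 to 13.51 ± 0.933 FPKM (SD, n = 2 each), a ratio of 3.58 and a log2 difference of 1.60 (SE 0.21, adjusted p = 7e-07). Kremen2 rose 3.39-fold (log2 1.4, SE 0.18, 4.7e-07), Dkk3 2.89-fold (1.4, SE 0.14, 4.7e-09), Dkkl1 2.15-fold (1.08, SE 0.21, 0.00014) and Kremen1 1.99-fold (0.91, SE 0.15, 2.4e-05). For these 5 the libraries of the groups did not overlap, and the calls held in every alternative and with every library left out in turn. Dkk2 was at 2.62 against 3.835 FPKM (-0.43, SE 0.19, 0.067), and Dkk1 went from 0 and about 1 fragment to about 15 and 9. Scaling by the median of ratios took the median of all genes from 0.25 to 0.00 and the differences to 1.22 for Notum, 1.05 for Kremen2, 1.00 for Dkk3, 0.65 for Dkkl1 and 0.50 for Kremen1, all in the same direction. Sebaceous gland markers (3.66 to 5.34) and bulge and germ markers (4.68 to 5.39) were higher in dorsal early anagen too, and their part was not tested.

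In ventral skin the same step took 1 member up and 3 down (background 42.5%; median of the members -0.29, of all genes -0.10). Notum fell from 11.99 to 3.07 FPKM, 3.90-fold lower (log2 -1.66, SE 0.17, adjusted p = 8.6e-09), and Kremen2 from 9.317 to 3.903 FPKM, 2.39-fold lower (-1.07, SE 0.15, 1.1e-06). Both calls held in every alternative and with each library left out. Dkk1 went from about 11, 16 and 18 fragments to 0 in all 3 libraries, and Dkk4 from about 10, 3 and 1 to 0. Kremen1 fell by 0.36 (0.021), but not without ventral competent telogen replicate 1 (0.14) or ventral early anagen replicate 3 (0.06), nor under median of ratios scaling (0.3) or with only the ventral libraries in the fit (0.14). Dkkl1 rose by 0.51 (0.017), which was lost without ventral competent telogen replicate 2 (0.057) or 3 (0.057) or ventral early anagen replicate 2 (0.053). Dkk3 stood at 19.73 against 16.34 FPKM (0.26, SE 0.11, 0.069). Both groups of this step carry stage labels that the hair matrix and melanocyte lists go against, with melanocyte markers at 5.22 in competent telogen and 2.02 in early anagen.

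From early to mid anagen, all 6 members fell in dorsal skin (background 39.2%; median of the members -0.77, of all genes -0.18). Notum fell 2.54-fold (log2 -1.21, SE 0.20, 1.3e-05), Dkk2 2.61-fold (-0.84, SE 0.17, 0.00027) and Kremen2 2.37-fold (-1.03, SE 0.17, 1.4e-05). Dkk3 and Dkkl1 fell by 0.59 (0.00051) and by 0.70 (0.005), and Dkk1 went from about 15 and 9 fragments to at most 2. Kremen1 fell by 0.50 (0.0056), a call lost without dorsal early anagen replicate 1 (0.08), and under median of ratios scaling neither Kremen1 (0.15) nor Dkkl1 (0.15) was called. In ventral skin 2 members rose and 2 fell (background 42.4%). Dkkl1 fell from 116.6 to 37.06 FPKM, 3.15-fold lower (-1.63, SE 0.19, 7.8e-08), while Notum rose 2.23-fold (0.94, SE 0.20, 0.00025). Dkk2 rose by 0.45 (0.038) and Dkk3 fell by 0.38 (0.017), and both calls were lost without ventral mid anagen replicate 1 (0.60 and 0.28) and without ventral early anagen replicate 2 (0.14 and 0.056); without ventral early anagen replicate 3 Dkk2 was lost as well (0.061).

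At the end of growth in dorsal skin, from late anagen to catagen, 5 members fell and none rose (background 38.7%; median of the members -0.66, of all genes 0.00). Kremen2 was 2.30-fold lower (log2 -0.81, SE 0.17, 0.00025), Dkkl1 2.21-fold (-1.11, SE 0.19, 3.1e-05), Kremen1 1.76-fold (-0.73, SE 0.14, 0.00011) and Dkk3 1.55-fold (-0.57, SE 0.13, 0.00068). Notum fell by 0.58 (0.018), which did not hold without dorsal late anagen replicate 2 (0.085) or dorsal catagen replicate 2 (0.31). Dkk2 stood in this step at 1.715 against 1.733 FPKM (-0.02, SE 0.17, 1.0). Dorsal catagen is the group with the high pigment and proliferation markers given above, and their part in its differences here, from refractory telogen and from chin was not tested.

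From catagen to refractory telogen Dkk2 and Dkkl1 rose in each domain. Dkkl1 rose 2.72-fold in chin (log2 1.43, SE 0.17, 6.5e-08), 4.45-fold in ventral (2.09, SE 0.21, 1.2e-08) and 3.55-fold in dorsal skin (1.78, SE 0.21, 6.3e-08). Dkk2 rose 2.47-fold in chin (1.07, SE 0.15, 1.2e-06), 3.82-fold in ventral (1.52, SE 0.19, 3.5e-07) and 3.78-fold in dorsal skin (1.47, SE 0.19, 2.3e-07). These 6 calls held under all alternatives and with each library left out. Of the 6 members, 4 rose in chin (background 48.0%), 2 rose and 2 fell in ventral skin (33.6%) and 4 rose in dorsal skin (43.7%). Dkk3 rose 1.73-fold in chin (0.72, SE 0.11, 6e-06), with 0.27 (0.15) in ventral and 0.09 (0.69) in dorsal skin. The other calls depended on single libraries, scaling or the samples in the fit. Kremen2 in chin (0.37, 0.042) was lost under median of ratios scaling (0.2), under quantile normalization (0.58), with only the chin libraries in the fit (0.1), and without chin catagen replicate 1 (0.24) or chin refractory telogen replicates 1 (0.18) or 2 (0.19), and in ventral skin, where it fell by 0.66 (0.0056), without ventral catagen replicate 1 (0.11) or ventral refractory telogen replicate 1 (0.11). Kremen1 fell by 0.40 (0.044) in ventral skin, but turned to 0.05 (0.82) without ventral refractory telogen replicate 2 and was lost without ventral catagen replicates 1 (0.11) or 2 (0.16), after rescaling to TPM (0.065), under quantile normalization (0.052) and with only the ventral libraries in the fit (0.2). In dorsal skin Kremen1 rose by 0.53 (0.006), lost without dorsal catagen replicate 1 (0.073), and Notum by 0.81 (0.0027), lost without dorsal catagen replicate 2 (0.081) or dorsal refractory telogen replicate 1 (0.10).

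Between domains, dorsal skin labelled competent telogen stood below the others in nearly all members. Against ventral skin 5 of 6 were lower and none higher (background 47.9%; median of the members -1.23, of all genes -0.25). Kremen2 was 4.15-fold lower (log2 -1.67, SE 0.17, 3.2e-09), Notum 3.18-fold (-1.43, SE 0.20, 6.6e-07), Dkkl1 2.51-fold (-1.30, SE 0.19, 2.8e-06), Dkk3 2.43-fold (-1.16, SE 0.13, 2e-08) and Kremen1 1.90-fold (-0.83, SE 0.14, 1.6e-05). These 5 calls held in every alternative. Against chin 5 were lower and 1 higher (36.7%). Dkkl1 was 3.59-fold lower (-1.81, SE 0.21, 1.1e-07), Kremen2 3.26-fold (-1.35, SE 0.18, 1.1e-06) and Dkk3 2.34-fold (-1.11, SE 0.14, 3.8e-07), with Kremen1 at -0.82 (0.00011). Notum (-0.71, 0.0098) was lost without chin competent telogen replicate 2 (0.11) or dorsal competent telogen replicate 1 (0.053), and under median of ratios scaling (0.12). Dkk2 was the member higher in dorsal skin (0.62, 0.01), lost without chin competent telogen replicate 1 (0.093) or dorsal competent telogen replicate 1 (0.061). The comparisons share the 2 dorsal libraries.

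At early anagen the order of dorsal and ventral skin was turned for several members: 3 were higher in dorsal skin and 2 lower (background 41.7%). Notum was 4.40-fold higher (log2 1.83, SE 0.20, 1.1e-08) and Kremen2 1.95-fold (0.81, SE 0.17, 0.00025). Kremen1 (0.43, 0.014) was lost without dorsal early anagen replicate 1 (0.13) and under median of ratios scaling (0.14). Dkkl1 was 1.67-fold lower (-0.73, SE 0.19, 0.0031), and Dkk2 (-0.51, 0.019) was lost without dorsal early anagen replicate 2 (0.29) or ventral early anagen replicate 1 (0.075). Dkk3 was level, at 19.44 against 19.73 FPKM (-0.02, SE 0.13, 0.96). At mid anagen 2 members were lower in dorsal skin (28.3%). Dkk2 was 6.05-fold lower (-1.80, SE 0.17, 6.5e-09), the widest ratio between domains among these comparisons of the 6 members, and Kremen2 (-0.62, 0.0061) was lost without ventral mid anagen replicate 2 (0.19).

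Dorsal skin was also below chin late in the cycle. At catagen all 6 members were lower (background 41.3%; median of the members -0.63, of all genes 0.00). Notum was 2.51-fold lower (log2 -1.10, SE 0.20, 3.5e-05), Dkkl1 1.66-fold (-0.69, SE 0.19, 0.0046) and Kremen1 1.63-fold (-0.63, SE 0.14, 0.00058), and these 3 held with each library left out. Dkk2 (-0.60, 0.0057) went to 0.14 without dorsal catagen replicate 2. Kremen2 (-0.63, 0.0027) went to 0.061 without dorsal catagen replicate 1, and Dkk3 (-0.35, 0.031) went to 0.24 without that library and to 0.083 and 0.074 without chin catagen replicates 1 and 3. At refractory telogen 2 were lower (34.8%). Dkk3 was 2.12-fold lower (-0.98, SE 0.13, 6.2e-07), and Kremen2 (-0.57, 0.008) was lost under quantile normalization (-0.29, 0.25), under median of ratios scaling (-0.38, 0.092), with only the libraries of that stage in the fit (0.13) and without dorsal refractory telogen replicate 1 (0.067). Dkk2, so variable over the cycle, stood at 6.475 against 7.643 FPKM in this comparison (-0.20, SE 0.17, 0.41).

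**Figure D4:**
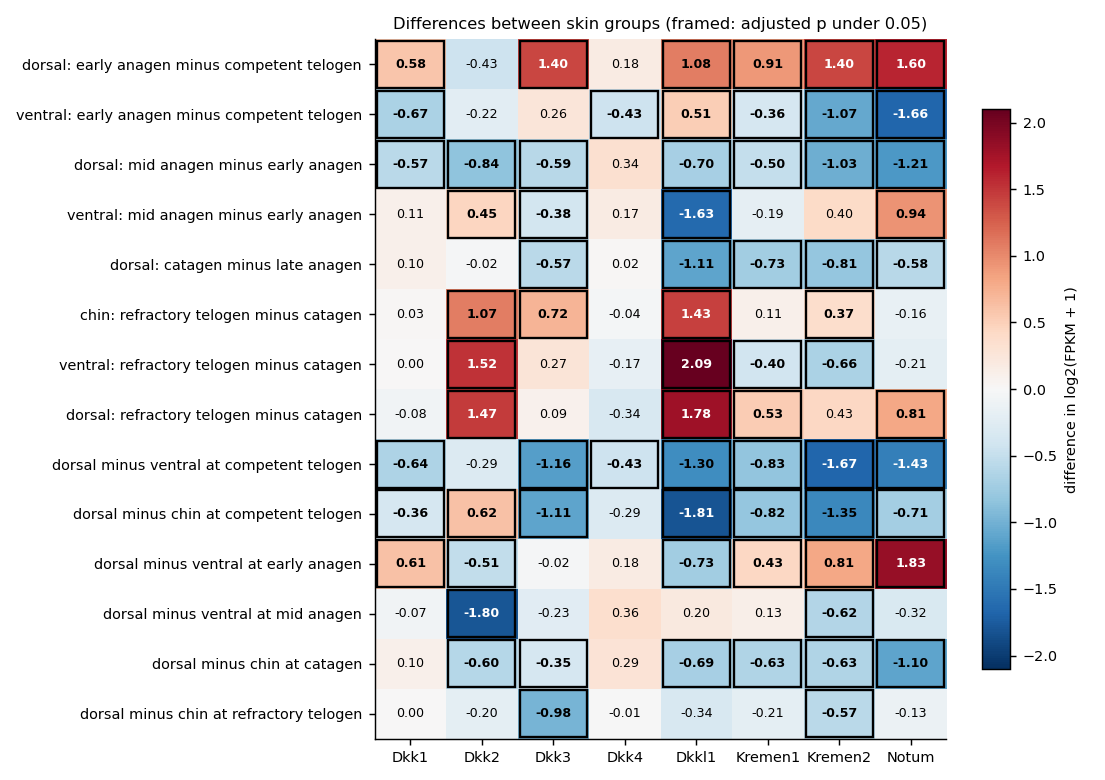
Fitted log2 differences of the 8 members (columns) in 14 pairwise comparisons of skin groups (rows), with the colour giving sign and size on the log2(FPKM + 1) scale and a mark on those called at an adjusted p under 0.05; Dkk1 and Dkk4 are drawn too, although they passed the filter only through groups where they were high. Notum reads 1.60 for early anagen minus competent telogen in dorsal skin and -1.66 in ventral skin.

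The genes whose skin profile was most like each member were listed by Pearson r over the 18 group means, among genes whose highest group mean was at least 5 FPKM. For Dkkl1 they were Tprg (0.979), Tnfrsf18 (0.972) and Ptgs1 (0.969). For Kremen2 they were Nrm (0.960), Dus3l (0.950) and Il17re (0.943), and for Dkk3 Dhx32 (0.947), Degs1 (0.941) and Slc35f5 (0.932). Likeness was lower for Dkk2, led by 4632428N05Rik (0.873), Cd52 (0.852) and Ramp1 (0.847). Kremen1 was nearest to Myo19 (0.930), Ccdc84 (0.929) and Flg (0.928), and Notum to Sdccag3 (0.910), Zfp213 (0.873) and E130309D02Rik (0.87). Among the members themselves, Notum went with Kremen2 (r = 0.78) and Kremen1 (0.77) and Dkk1 with Kremen2 (0.76), while Dkk2 and Dkk4 ran opposite (-0.63). These are descriptions over groups that share libraries and depth.

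The other genes of the pathway were a list of 51 receptors, R-spondins, inhibitors and response genes, of which 49 were tested in skin. The interaction was called for 47 of them, against 73.3% of all genes. In dorsal skin, 29 rose and 1 fell from competent telogen to early anagen (median 0.46), where 43.4% of all genes were called with a median of 0.25 and 5 of the 6 members rose. In ventral skin 5 rose and 28 fell (median -0.48), where 42.5% of all genes were called with a median of -0.10 and 1 member rose and 3 fell. Wif1, a secreted WNT binder, went from 10.6 ± 0.742 to 41.4 ± 1.92 FPKM in dorsal skin (SD, n = 2 each) and from 69.0 ± 0.857 to 2.75 ± 0.113 FPKM in ventral skin (SD, n = 3 each), log2 differences of 1.87 and -4.22 (limma, 5.1e-11 and 3.9e-21). In dorsal skin Sostdc1, Rspo1 and Rspo2 rose by 1.76, 1.72 and 1.63, and in ventral skin Lef1, a nuclear factor of the pathway and one of its targets, fell by 2.86, with Rspo3 and Ccnd1 falling by 2.34 and 2.19.

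In the ear table the question is how the members stand in ear skin and in the cartilage and muscle beneath it, beside dorsal skin. 6 of the 8 members were tested. Dkk1, listed at 0 in all 3 cartilage/muscle libraries and at most 0.04 FPKM elsewhere, and Dkk4, at most 0.26 FPKM, did not pass the filter. The tissue labels were checked: 10 of 11 cartilage markers were found, with a mean level of 5.43 (5.40 to 5.49 over libraries) in the cartilage/muscle complex, 0.67 in ear skin and 0.31 in dorsal skin. The 9 skeletal muscle markers were at 8.82, 4.77 and 6.42 in the same order. In the complex, Krt71, Krt27, Krt25 and Krt73 of the inner root sheath were at 0, and the 5 epidermal markers had a mean level of 0.50 against 8.61 in ear skin.

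Dkk3 and Notum were the members of the cartilage/muscle complex. Dkk3 stood at 162.96, 183.43 and 162.36 FPKM there, 12.70 and 12.52 in ear skin and 6.81 and 6.64 in dorsal skin, and Notum at 48.61, 65.09 and 48.61, then 2.71 and 2.45, then 3.72 and 3.82 FPKM. No skin library in either table reached these levels. Against ear skin Dkk3 was 13.4-fold higher (log2 3.65, SE 0.07, adjusted p = 1.6e-07) and Notum 21-fold (3.93, SE 0.14, 1.9e-06). Against dorsal skin the ratios were 25.2 for Dkk3 (4.46, 5.1e-08) and 14.4 for Notum (3.52, 2.9e-06). Notumos was at 0.82 to 1.4 FPKM in the complex, above its level in all skin libraries.

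Dkkl1, Kremen2 and Dkk2 were the members of the skin. Dkkl1 was listed at 0 in all 3 cartilage/muscle libraries, at 214.12 and 209.33 FPKM in ear skin and at 31.62 and 33.43 FPKM in dorsal skin, so no fold against the complex is given. Kremen2 held 0.44, 0.18 and 0.15 FPKM in the complex, 6.45 and 6.41 in ear skin and 2.08 and 2.41 in dorsal skin, and the complex was below ear skin (log2 -2.57, SE 0.13). The ratio of the means was 25.1, or 39.0 without replicate 1 of the complex, so it rests on that library, and the log2 difference was -4.28 with a pseudocount of 0.1 FPKM. Dkk2 held 1.07, 1.03 and 1.12 FPKM in the complex against 13.9 and 13.6 in ear skin, 12.8-fold lower (-2.83, SE 0.07, 4.9e-07), and 3.93 and 3.74 in dorsal skin. The 9530082P21Rik antisense gene did not share the Kremen2 pattern, at 14.27 to 19.19 FPKM in the complex and 15.28 to 16.81 FPKM in ear skin. Kremen1 was the most even member: 10.13, 11.68 and 9.03 FPKM in the complex, 13.30 and 11.59 in ear skin and 7.63 and 7.25 in dorsal skin.

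Dkkl1 and Kremen2 passed the filter of the ear table through skin libraries alone. Their tests against the complex are not independent of the filter, so they are given without p-values and left out of the counts of the complex. Counted over the 6 members tested, 5 of 6 were higher in ear skin than in dorsal skin and none lower (background 59.3%; median of the members 1.01, of all genes 0.33). Of the other members, Dkk3 and Notum were higher and Dkk2 lower in the complex than in ear skin (background 66.5%). Against dorsal skin Dkk3, Notum and Kremen1 were higher in the complex and Dkk2 lower (71.1%). In ear skin against dorsal skin, Dkkl1 was 6.51-fold higher (log2 2.67, SE 0.06, 9.5e-07), Dkk2 3.59-fold (1.61, SE 0.08, 1.9e-05), Kremen2 2.86-fold (1.2, SE 0.14, 0.00058), Dkk3 1.88-fold (0.82, SE 0.08, 0.00025) and Kremen1 1.67-fold (0.67, SE 0.13, 0.0049). Marker levels moved with this comparison. In ear skin and dorsal skin respectively, the mean level was 5.70 and 3.66 for the 8 sebaceous gland markers, 8.61 and 6.63 for the 5 epidermal markers, 4.76 and 4.68 for the 7 bulge and germ markers, 2.55 and 6.65 for the 7 hair matrix and cortex markers and 4.76 and 10.91 for the 6 inner root sheath markers, with none at 0 in either tissue. Their part in the members' differences was not tested. Median of ratios scaling took the median of all genes from 0.33 to 0.02 and Kremen1 to 0.22 (0.15), no longer called. Notum, at -0.41 (SE 0.15, 0.057), was called lower in ear skin under that scaling (-0.80, 0.0039) and without cartilage/muscle replicate 2 (0.0045).

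As the dorsal group of the ear table is labelled competent telogen and has anagen-like markers, dorsal refractory telogen was also used in its place. Ear skin then still had higher Dkkl1 (1.38), Kremen2 (1.24), Dkk2 (0.98) and Dkk3 (0.74), Kremen1 was not called (0.32, adjusted p = 0.076), and Notum was lower (-0.94, 0.012). Against that dorsal group the complex kept its higher Dkk3 (4.38) and Notum (2.99) and its lower Dkkl1 (-6.36), Dkk2 (-1.85) and Kremen2 (-1.34). Kremen1, called higher in the complex than in dorsal skin (0.41, 0.019), was not called with this group (0.06, 0.65), under median of ratios scaling (0.68), or without either dorsal library (0.064 and 0.098). Between the complex and ear skin Kremen1 was at -0.26 (0.098), and was called without cartilage/muscle replicate 2 (0.025) and after rescaling to TPM, transcripts per fixed total (0.016).

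**Figure D5:**
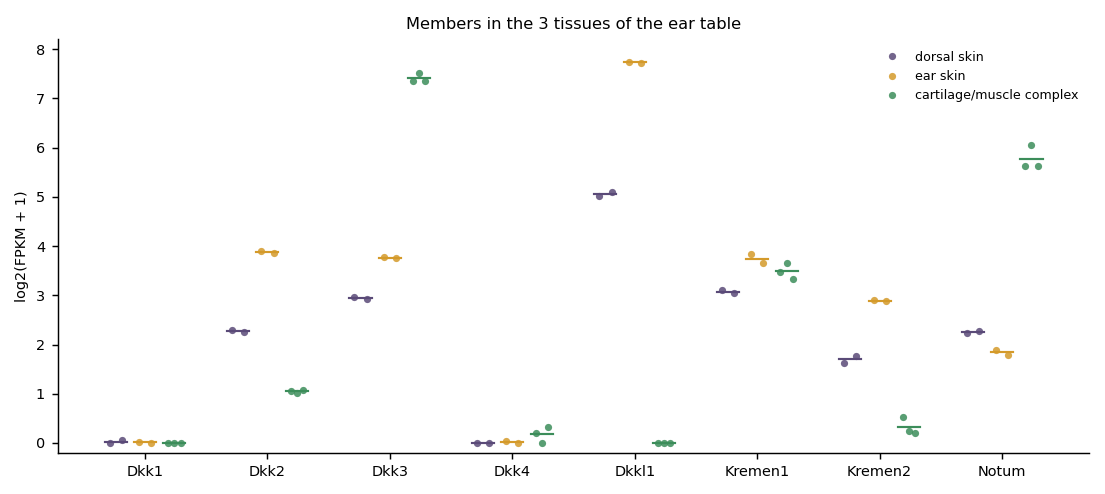
Levels of the members in the 3 tissues of the ear table, as log2(FPKM + 1) on the vertical axis, with 1 point per library. Before the log scale of the axis, Dkk3 and Notum are highest in the cartilage/muscle complex, at 162.36 to 183.43 and 48.61 to 65.09 FPKM, and Dkkl1 is at 0 there and above 209 FPKM in ear skin.

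Of the 51 listed pathway genes, 48 were tested in the ear table. In ear skin 22 were higher and 15 lower than in dorsal skin (median 0.13, of all genes 0.33), led by Lef1 (-3.76) and Lrp4 (2.87). The complex had 21 higher and 20 lower than ear skin (median -0.07, of all genes -0.11). Wif1 stood there at 2083.9 ± 18.3 FPKM (SD, n = 3) against 19.9 ± 1.36 in ear skin (n = 2), a log2 difference of 6.64, and the receptor Fzd9 (7.39) and the secreted inhibitor Frzb (6.23) were also higher, while Sostdc1 was lower (-4.92). So of the secreted proteins among the members and listed genes named here, Dkk3, Notum, Wif1 and Frzb were high in the complex, and Dkkl1, Dkk2 and Sostdc1 in ear skin.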

How the data were processed

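Skin and ear tissue of C57BL/6 mice was profiled by RNA-seq (reverse transcription, pre-amplification and Nextera tagmentation, per the labels). The deposited FPKM values were made by the authors with RSEM 1.2.25 on mm10, and their methods state a correction for batch effects without naming the batches. No read counts were used here, so limma 3.58.1 (R 4.3.3) was run on log2(FPKM + 1) with a variance trend over genes with at least 0.5 FPKM in 2 libraries. 21257 genes were tested in skin and 19299 in the ear table, with 18 and 3 groups in 1 model each and Benjamini-Hochberg adjustment over all genes tested. The model was tested on simulated data. FPKM steps of 6714 genes with 1 transcript, with a mean fragment length set at 180 bases, gave the estimated fragments, which cover counting only. The members, the marker and pathway lists and the comparisons were chosen with earlier results of these data known. All 8 members were named. Pathway genes were named only if called and among the 4 with the largest difference, and like genes were the 3 with the highest r. Other tools were Python 3.11.15, numpy 2.4.6, pandas 2.3.3 and matplotlib 3.10.9. The alternatives were other pseudocounts, filters, scalings, variance models and sets of samples, a replicate block, and each library left out. Those that dropped groups against whose labels the hair matrix and melanocyte lists stood were chosen after seeing the data. Replicate numbers were not used to pair libraries in the main fit. Of 37 pairs with the same number at a stage, 0 had correlated deviations over 0.1. The authors' batch correction may have removed such links, so this cannot show whether libraries with the same number share a mouse.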

Additional observations from a re-analysis of the deposited data

Results flagged for a closer look

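The change over the hair cycle differed between the 3 domains for the 6 members read in every skin library. The test was the interaction of domain and stage in limma with Benjamini-Hochberg adjustment over 21257 genes, of which 73.3% were called. The adjusted p was 6.3e-07 for Dkk2, 7.5e-10 for Dkk3, 7.9e-07 for Dkkl1, 1.2e-06 for Kremen1, 2.4e-08 for Kremen2 and 6.4e-09 for Notum. Dkk1 was flagged too, at an adjusted p of 1.3e-06 in the same test. It passed the filter only through the groups where it was high, so its test is not independent of the filter. Dkk1 is therefore not counted, and nothing is concluded from its p-value. Notum shows the difference at its plainest: from competent telogen to early anagen it rose 3.58-fold in dorsal skin and was 3.90-fold lower in ventral skin. Kremen2 moved the same way in both, 3.39-fold up and 2.39-fold down. Marker levels moved with the labels too, with Shh at 2.09 and 10.8 FPKM in dorsal and 9.93 and 0.203 FPKM in ventral skin, and their part in the result was not tested.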

How the results depend on the processing

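Dkk1 and Dkk4, which passed the filter only through groups where they were high, are among the 8 members counted here. The interaction was called for 7 of 8 members, and for 7 to 8 with 1 library left out, beside 73.3% of all genes. Domain differences were called in 30 of 48 tests (26 to 32 with 1 library left out), beside 20.8% to 54.0% of all genes at a stage. They were called in 16 of 35 with the competent telogen and ventral early anagen groups left out, which removes 1 stage, 1 more group and 1 member that no longer passed the filter. Stage differences were called in 22 of 24 tests (21 to 23), beside 66.2% to 70.2% of all genes in a domain. Among ear tissues, 5 of 6 members were called between ear skin and dorsal skin (5 to 6), beside 59.3% of all genes. Between the cartilage/muscle complex and ear skin 5 of 6 were called (5 to 6), beside 66.5%, and between the complex and dorsal skin 6 of 6 (5 to 6), beside 71.1%. Dkkl1 and Kremen2, which passed the filter through skin libraries alone, are among those counted against the complex. With the replicate block the counts were 7 for the interaction, 31 for domains, 22 for stages, and 6 for the complex against dorsal skin without the ear skin libraries, whose columns carry no replicate number. Of 88 single pairwise results, 3882 of 3972 alternative values kept direction and side of the threshold, 82 fell below it, 7 passed it and 1 reversed: Kremen1 in ventral skin from catagen to refractory telogen ran from -0.86 without ventral refractory telogen replicate 1 to 0.05 without replicate 2 of that group, and the cause was not tested. Depth limits Dkk1 and Dkk4, at no more than 18 and 14 estimated fragments in any skin library.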
